A study of Mus musculus with 6 samples.

Results

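The genes described here encode the translation initiation factors of the mouse and the proteins that regulate them. Members were all array probes with 1 gene symbol in the platform annotation, starting with Eif followed by a digit from 1 to 6. This takes in the Eif2ak kinases and the Eif4ebp inhibitors. The rule found 96 probes of 51 genes among the 34885 probes with 1 gene symbol, of 45281 on the array. Their transcripts were read on Illumina bead arrays, 1 for each of 6 stably transfected lines of NIH3T3, which are immortalized embryonic fibroblasts of NIH Swiss mice. In FEAT 3, FEAT 15 and FEAT 20 the plasmid pEF-DEST51 expressed a human FEAT coding sequence (the gene is also called METTL13 or EEF1AKNMT) from the elongation factor 1 alpha promoter, and these lines were colonies that survived blasticidin S and were chosen for overexpressing the FEAT protein. Control 1, control 2 and control 3, named ΔccdB by the submitters, held pEF-DEST51 with ccdB deleted and no FEAT. The sources used here do not say how the control lines were selected. Each line was 1 clone, so p-values below measure the spread between clones. The comparison asked which transcripts differ between the FEAT and the control clones.

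Initiation factors bring the ribosome to an mRNA and place it on the start codon. The cap-binding complex eIF4F, made of the cap-binding protein eIF4E, the helicase eIF4A and the scaffold eIF4G, recruits the mRNA, and the 4E-binding proteins block it until mTORC1 phosphorylates them. eIF2 carries the initiator tRNA, eIF2B recharges eIF2 with GTP, and 4 kinases that phosphorylate the eIF2 alpha subunit under stress lower its recycling while allowing translation of ATF4. eIF3, a large complex of many subunits, holds the small ribosomal subunit ready. FEAT is known as a methyltransferase of the elongation factor eEF1A, which acts in the next phase of translation.

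Mean probe intensity was 616 to 735 per array as deposited, and between 38.3% and 42.4% of probes lay above a background limit set for each array from its dim probes. Intensities below are from the deposited value table, in which each array was scaled to a mean of 680.2, and they still hold the background signal of the arrays, whose medians were 81.6 to 92.6 after scaling. The highest median was that of FEAT 3, the array with the largest scaling factor (1.10), so its dim probes carry more background. On all 6 arrays, 10 of 11 fibroblast markers were above the limit, among them Vim and Col1a1, while the proteoglycan gene Lum was above it on none. Of the epithelial markers, Epcam and Krt5 were above the limit on no array, whereas Cdh1 was above it on all 6, at 96.5 to 126, and Krt14 read 15983 to 24004 in control clones and 18824 to 28128 in FEAT clones. Whether the bright Krt14 signal comes from that transcript or from the probe was not tested. Endothelial, muscle, leukocyte and hepatocyte markers were dim: of 14 on the array, Des, at 109.5 to 145, was the 1 gene above the limit on all 6. The part of such markers in the results was not tested. The mouse probes need not read the human insert, so its level was not checked here. Precision is limited by having 3 arrays in a group, and in such bulk RNA fewer cells of a type and less RNA per cell cannot be told apart.

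The upstream sequences of these genes were looked at for what the members share beyond their names. RefSeq promoter windows of assembly GRCm38.p6 were found for 39 of the 51 genes, 52 windows in all, since a gene with several start sites has several. In the 250 bases before the start site the median GC content was 61.6%, against 56.4% over 18719 windows of all named array genes. The median count of the pair CG, a C followed by a G, was 19.5 per window, against 11 in the array genes' windows. The E-box CACGTG, which reads the same on both strands and is bound by MYC and related factors, was in 10 of the 52 windows (19.2%), against 7.01% of the array genes' windows and 6.02% of all 32851 windows. The 10 windows belonged to 8 genes, Eif1b, Eif3f, Eif3k, Eif4a1, Eif4e, Eif4h, Eif5a and Eif5a2. Windows of alternative starts overlap and are not independent, and a match is a description of the letters, not a binding site. The sites of the 7 genes tested below are printed 5′ to 3′ along the gene's strand with the E-box in capitals, because Eif4e is a known MYC target through such sites and can then be set beside the others.
Eif4e: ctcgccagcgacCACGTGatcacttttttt
Eif4e: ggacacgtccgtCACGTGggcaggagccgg
Eif4a1: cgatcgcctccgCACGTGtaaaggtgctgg
Eif4h: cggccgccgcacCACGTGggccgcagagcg
Eif1b: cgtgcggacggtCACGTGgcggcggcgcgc
Eif5a: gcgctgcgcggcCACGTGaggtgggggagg
Eif5a: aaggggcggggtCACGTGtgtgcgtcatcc
Eif3f: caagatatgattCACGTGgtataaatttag
Eif3k: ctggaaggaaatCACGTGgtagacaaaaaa

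The Eif4e sites lay at chr3:138527028-138527057 on the plus strand and chr3:138527192-138527221 on the plus strand, with the E-box beginning 228 and 64 bases before the start site. That of Eif4a1 was at chr11:69672595-69672624 on the minus strand, 189 bases before it, and that of Eif4h at chr5:134639488-134639517 on the minus strand, 96 bases before it. The Eif1b site was at chr9:120492570-120492599 on the plus strand, the Eif5a sites at chr11:69920791-69920820 on the minus strand and chr11:69921443-69921472 on the minus strand, among its 6 listed windows. Eif3f held its site at chr7:108934335-108934364 on the plus strand and Eif3k at chr7:28981915-28981944 on the minus strand. The ETS core CCGGAAG was in 21.2% of the member windows and in 9.48% of the array genes' windows, on either strand. The NF-Y box CCAAT was in 25% and 34.8% and the TATA box TATAAA in 5.77% and 10.8%. The ATF4 composite TGATGNAA was in 1.92% (the Eif2s3x window) against 2.77%, and the CRE TGACGTCA in none of the 52 against 2.02%. Motifs were counted separately and may overlap. The E-box, the ETS core and the CRE each hold the pair CG, and the part of CG content in these shares was not tested. Of the 7 tested genes with an E-box, differences between the groups ran from -0.076 for Eif3k to 0.22 for Eif4e on the log2 scale, and none passed the test described next.

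No initiation factor gene differed between the FEAT and the control clones at an adjusted p of 0.05. Each gene was read on its brightest probe, and 47 of the 51 genes, on 81 of the 96 probes, passed the filter on dim probes and were tested (limma on normalized log2 values, adjusted over all 27169 probes). The count of called members was 0 of 47, on any of the 81 probes too, where 0.225% of all 13315 genes tested were called. At an unadjusted p under 0.05, 2 members were higher in the FEAT clones, Eif4enif1 and Eif3a, and 0 were lower, against 5.20% and 4.94% of all genes. These numbers depended on the processing and on single clones. The number higher was 0 without control 1 or with the mean of a gene's probes, and 1 without FEAT 3 or FEAT 20. It was 3 without control 3 or with median scaling, and 4 in 4 other settings. The number lower was 1 in 2 settings and without control 2 or FEAT 20. The smallest adjusted p was 0.428. Log2 differences, FEAT minus control, ran from -0.33 for Eif2ak2 to 0.41 for Eif4enif1, with a median of 0.086 over the 47 members and 0.0071 over all genes tested. The median of the members was 0.045 without FEAT 3 and 0.056 without background correction.

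The intervals say how large a difference these 6 arrays leave room for. For 40 of the 47 members the 95% interval of the difference lay wholly within 1.5-fold in either direction, where 75% of all genes did, and for all 47 within 2-fold, where 96.7% did. The 7 members whose interval reached beyond 1.5-fold were Eif4enif1, Eif2s2, Eif3a, Eif5 and Eif3j1 on the upper side and Eif2ak2 and Eif4b on the lower side. Among the 40 members above background on all 6 arrays, 33 had an interval within 1.5-fold (82.5%). All tested members not above background on every array were within it too. Their signal lies close to background, so such an interval need not bound a difference in the transcript. The counts of intervals above are for brightest probes. Of all 81 tested member probes, 70 had an interval within 1.5-fold, where 76.8% of all probes did. Other probes above background on all 6 arrays reached beyond it for Eif1ad (log2 upper ends 0.61 and 0.69) and Eif4e2 (lower end -0.67). These intervals are not adjusted for the number of genes. By sign, 31 of 47 members were above 0, against 51.6% of all genes. In 10 members all 3 FEAT clones lay above all 3 control clones on the normalized values (7.95% of all genes) and in 1 all lay below (7.24% of all genes). On the intensities of the value table these numbers were 11 and 0, with different members at the margin.

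**Figure D1:**
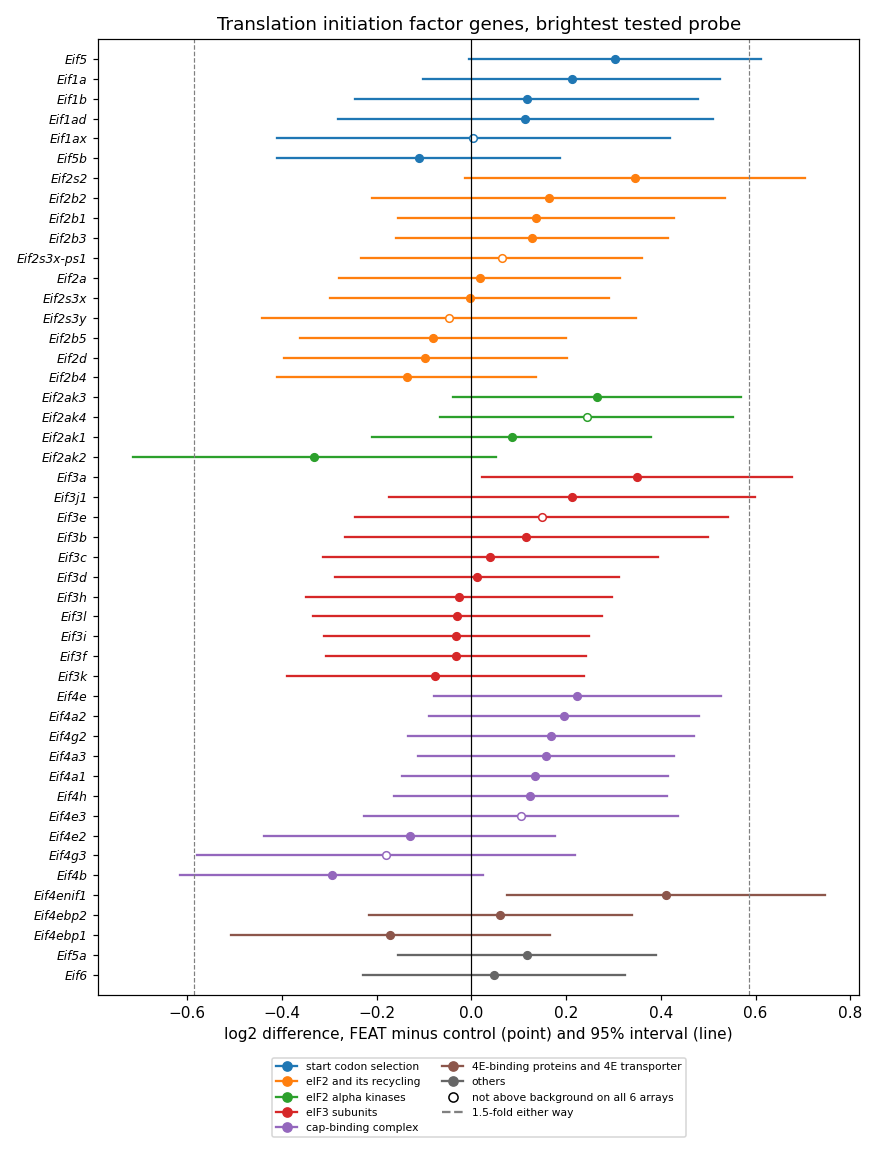
Log2 difference between FEAT and control clones for the 47 tested initiation factor genes on their brightest probe, as a point with its 95% interval, coloured by role; open points were not above background on all 6 arrays. Points run from -0.33 to 0.41, and 40 of 47 intervals lie between the dashed lines at 1.5-fold.

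Among factors of start codon selection, 5 of 6 tested genes had a difference above 0 and none passed. Eif5, the GTPase-activating protein of eIF2, read 6049.9, 5798 and 7566 in control 1, control 2 and control 3 and 7641, 8053 and 8024 in FEAT 3, FEAT 15 and FEAT 20. The FEAT clones were all above the control clones, of which control 3 came closest (log2 difference 0.30, SE 0.14, 95% interval -0.0046 to 0.61, adjusted p = 0.560). The other tested Eif5 probes did not follow it, at -0.0029 and 0.090. Eif1a, a relative of the scanning factor gene Eif1ax, read 2870.2, 3416 and 3399.9 in the controls and 4115, 3499.8 and 3719 in the FEAT clones. Here too the groups did not overlap, by a margin smaller than the spread within each of them (log2 difference 0.21, SE 0.14, 95% interval -0.10 to 0.53, adjusted p = 0.706). Eif1b, a close relative of Eif1, read 1388, 1686 and 1206 in control clones and 1367, 1858 and 1492 in FEAT clones, with overlap (log2 0.12, adjusted p = 0.878). Eif5b, the GTPase that joins the ribosomal subunits, was at -0.11 and Eif1ad, a nuclear protein with an eIF1A-like domain, at 0.11 (adjusted p = 0.855 and 0.894). The other tested Eif1ad probes, above background on all 6 arrays, were at 0.23 and 0.31 (adjusted p = 0.754 and 0.654). Eif1ax was above background on 3 of 6 arrays and read 81.0 to 116.

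The eIF2 group counts 12 tested genes, 7 above 0, with Eif5 in it as well, and none passed. Eif2s2, the beta subunit of eIF2, read 5203, 5435 and 5307 in the control clones, within a narrow band, and 8269, 5837 and 6323 in FEAT 3, FEAT 15 and FEAT 20. All 3 FEAT clones were higher, and FEAT 3 stood well above the others (log2 difference 0.35, SE 0.16, 95% interval -0.014 to 0.70, adjusted p = 0.569). Its other probe showed the same high FEAT 3, at 1138, 1208 and 1258 against 1738, 1210.2 and 1359 (log2 0.22, adjusted p = 0.750). Without FEAT 3 the difference of the brightest probe was 0.17 on the log2 scale. Eif2s3x, the gamma subunit encoded on the X chromosome, had close group means of 3034 ± 322 and 3034 ± 239.5 (SD, n = 3 each; log2 difference -0.0032, limma, 95% interval -0.30 to 0.29). Its Y-linked counterpart Eif2s3y was above background on 1 of 6 arrays, FEAT 3, and the pseudogene Eif2s3x-ps1 on none. Eif2s3x, Eif2s3y and the pseudogene are close copies, and which of them a probe reads is uncertain.

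The 5 subunits of eIF2B, the exchange factor whose mutation causes a white matter disease in people, lay between -0.14 and 0.16 on the log2 scale on their brightest probes. Eif2b5, the catalytic subunit, read 5507, 5401 and 5892 in control clones and 5246, 4942 and 5625 in FEAT clones, with overlap (log2 difference -0.081, SE 0.13, 95% interval -0.36 to 0.20, adjusted p = 0.894). All 3 of its probes were below 0, at -0.081, -0.17 and -0.085. Eif2b4 read 2094, 2283 and 2224 against 1919.6, 2131 and 2104, and its intensities in the value table overlapped. On brightest probes it was the 1 member whose normalized values were lower in all FEAT clones (log2 -0.14, adjusted p = 0.793). Eif2b1, Eif2b2 and Eif2b3 were at 0.14, 0.16 and 0.13 (adjusted p = 0.808, 0.824 and 0.818). Eif2a, a factor distinct from the alpha subunit of eIF2, differed by 0.017 and Eif2d, which can deliver tRNA without GTP, by -0.10 (adjusted p = 0.984 and 0.877). Eif1, Eif2s1, which encodes the alpha subunit itself, Eif3g and Eif4g1 were not analysed here.

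The eIF2 alpha kinases each answer a different stress, and none of the 4 passed the test. Eif2ak2, the double-stranded RNA sensor PKR, had the most negative difference of all members, with 2109, 1330.2 and 1957 in control 1, control 2 and control 3 and 1322, 1565 and 1449 in FEAT 3, FEAT 15 and FEAT 20. Control 2 was as low as the FEAT clones, so the groups overlapped (log2 difference -0.33, SE 0.17, 95% interval -0.71 to 0.052, adjusted p = 0.611), and the difference was -0.53 without control 2 and -0.20 without control 1. Eif2ak3, the kinase PERK of the endoplasmic reticulum, was dim but above background on all arrays, at 138, 159 and 144 in control clones and 160.03, 164 and 181 in FEAT clones. Its FEAT clones were all higher, FEAT 3 by less than 1 unit over control 2. That margin is smaller than the spread of the array medians. The log2 difference was 0.27 (SE 0.14, 95% interval -0.039 to 0.57, adjusted p = 0.609), whereas a dimmer probe, below the limit on every array, was at -0.087. The difference was 0.20 without background correction and 0.089 as the mean of both probes. Eif2ak4, the amino acid sensor GCN2, read 93.9, 112 and 108 in control clones and 119, 112 and 118 in FEAT clones, above background on 5 of 6 arrays (log2 0.24, adjusted p = 0.653). Eif2ak1, the heme-regulated kinase HRI, read 935, 1173 and 1060.2 in control clones and 1076, 1143 and 1189 in FEAT clones, with overlap (log2 0.086, 95% interval -0.21 to 0.38, adjusted p = 0.893).

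Of the 11 tested eIF3 subunit genes, 6 were above 0, with a median difference of 0.013, and none passed. Eif3a, which encodes the largest subunit and a scaffold of the complex, read 3059, 3592 and 3995 in control clones and 4303, 4197 and 5199 in FEAT 3, FEAT 15 and FEAT 20. All FEAT clones were above all controls, with control 3 nearest to them and FEAT 20 highest (log2 difference 0.35, SE 0.15, 95% interval 0.022 to 0.68, adjusted p = 0.516, unadjusted p = 0.0387). The other 3 tested Eif3a probes were also above 0, at 0.18, 0.15 and 0.21, but dim, and 1 of them was above background on all arrays.

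The other subunits of the eIF3 core lay closer to 0. Eif3b, a scaffold with an RNA recognition motif, read 3331, 5179 and 4813 in control clones and 4991, 4576 and 4823 in FEAT clones, where control 1 was the low clone (log2 0.12, adjusted p = 0.887). Eif3c read 3714, 4246 and 3424 in control clones and 4558, 3945 and 3481 in FEAT clones, with overlap (log2 0.040). Eif3d, a subunit that can bind the cap of some mRNAs, was at 0.013, Eif3f at -0.033, Eif3i at -0.031, Eif3l at -0.029, Eif3h at -0.026 and Eif3k at -0.076. Eif3f was bright, at 24397, 24215 and 23909 in control clones and 24958, 21630.4 and 24043 in FEAT clones, and its 95% interval of -0.31 to 0.24 lay within 1.5-fold. Eif3j1, a loosely bound subunit, read 156, 135 and 179 in control clones and 198, 167 and 156 in FEAT clones, with overlap (log2 0.21, adjusted p = 0.771). Eif3e was above background on 1 of 6 arrays.

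In the cap-binding group 7 of 10 tested genes were above 0, with a median of 0.13, and none passed. Eif4e, the cap-binding protein, was dim, with 138, 136 and 126 in control clones and 154, 135 and 155 in FEAT clones. FEAT 15 lay within the control range, so the groups overlapped (log2 difference 0.22, SE 0.14, 95% interval -0.080 to 0.53, adjusted p = 0.678). Eif4a1, the main eIF4A helicase, read 22516, 23831 and 23185 in control clones and 25300.5, 25912 and 24229 in FEAT clones, with all FEAT clones higher in the value table but overlapping controls after quantile normalization (log2 difference 0.13, SE 0.13, 95% interval -0.15 to 0.42, adjusted p = 0.805). Eif4a2, its close paralog, read 8847, 8185 and 8696 in control clones and 9579.6, 9137 and 10901 in FEAT clones, without overlap (log2 difference 0.20, SE 0.13, 95% interval -0.090 to 0.48, adjusted p = 0.702), and its other probes were at 0.092 and 0.031. Eif4a3, a related helicase of the exon junction complex, also separated the groups, at 4732, 4853 and 5034 in control clones and 5195, 5559 and 5546 in FEAT clones (log2 difference 0.16, SE 0.12, 95% interval -0.11 to 0.43, adjusted p = 0.754). The 3 helicases share much sequence, and probes of one may read another.

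Eif4b and Eif4h, both cofactors of the helicase, differed in sign. Eif4b read 1905, 1946 and 1776 in the controls and 1337, 1508 and 1905 in FEAT 3, FEAT 15 and FEAT 20, where FEAT 20 matched the controls (log2 difference -0.29, SE 0.15, 95% interval -0.61 to 0.025, adjusted p = 0.586). Its other probe pointed the other way, at 0.16, with 286, 282 and 343 in control clones and 307, 329 and 378 in FEAT clones, so the sign of Eif4b depends on the probe. Eif4h was at 0.12 (adjusted p = 0.827). Eif4g2, a scaffold related to eIF4G that does not bind eIF4E, read 3198, 3505 and 4003 in control clones and 4165, 4050.4 and 3978 in FEAT clones, with control 3 in the FEAT range (log2 difference 0.17, SE 0.14, 95% interval -0.13 to 0.47, adjusted p = 0.769). Eif4g3, a second eIF4G, and Eif4e3 were not above background on any array.

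Eif4e2, a cap-binding relative that serves in translational repression, is described although its brightest probe fell outside the rule for values by clone, because another of its probes was the 1 member probe lower in FEAT clones at an unadjusted p under 0.05. It was chosen after its values were seen. The brightest probe read 4446, 4321 and 3817 in control clones and 3415, 3813 and 4525 in FEAT clones, with overlap (log2 -0.13, adjusted p = 0.830). The second read 861, 875 and 805 in control clones and 584, 666 and 809 in FEAT clones (log2 -0.36, unadjusted p = 0.0274, adjusted p = 0.462), and the third was at -0.18. All 3 probes were below 0, and FEAT 3 was the lowest clone on each.

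The 4E-binding proteins did not pass the test. Eif4ebp1, the mTORC1-regulated inhibitor of eIF4E and a known ATF4 target, read 11626, 11833 and 10839 in control 1, control 2 and control 3 and 12180.0, 9156 and 9417 in FEAT 3, FEAT 15 and FEAT 20. FEAT 15 and FEAT 20 were below the controls while FEAT 3 was above them (log2 difference -0.17, SE 0.15, 95% interval -0.51 to 0.17, adjusted p = 0.789). Eif4ebp2 read 1739, 1695 and 1718 in control clones and 1833, 1727 and 1936 in FEAT clones, with FEAT 15 inside the control range (log2 difference 0.061, SE 0.13, 95% interval -0.22 to 0.34, adjusted p = 0.922). Eif4enif1 encodes the 4E transporter, which shuttles eIF4E into the nucleus and into processing bodies, and had the smallest p of all members. It read 1142, 1586 and 1395 in control clones and 1713, 2006 and 1797 in FEAT clones, so that all FEAT clones were higher, by 1.33-fold on average (log2 difference 0.41, SE 0.15, 95% interval 0.075 to 0.75, adjusted p = 0.428, unadjusted p = 0.0207). The difference did not pass over all probes, and the other probe, at 334, 523 and 394 in control clones and 495, 431 and 524 in FEAT clones, overlapped (log2 0.23, adjusted p = 0.766).

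Eif5a and Eif6 act outside the core of initiation and lay near 0. Eif5a, the hypusine-modified factor that also relieves stalled elongation, read 16221, 17536 and 16871 in control clones and 17004, 17902 and 18253 in FEAT clones (log2 difference 0.12, SE 0.12, 95% interval -0.15 to 0.39, adjusted p = 0.826). The values of the table overlapped, whereas the normalized values were higher in all FEAT clones, and the other probes were at 0.047 and 0.058. Eif6, which keeps the large ribosomal subunit from joining early, read 11539, 12392 and 12359.6 in control clones and 11981, 12136 and 12914 in FEAT clones, with overlap (log2 difference 0.047, SE 0.13, 95% interval -0.23 to 0.32, adjusted p = 0.943). Of the 47 tested genes, 40 were above background on all 6 arrays, 4 on some and 3 on none. The 4 members not tested were dim on every array: Eif3m read 74.00 to 89.7, Eif4ebp3 60.04 to 85.5, Eif5a2 67.6 to 80.9 and the 3 probes of Eif4e1b 58.8 to 88.4, none above the limit on any array.

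**Figure D2:**
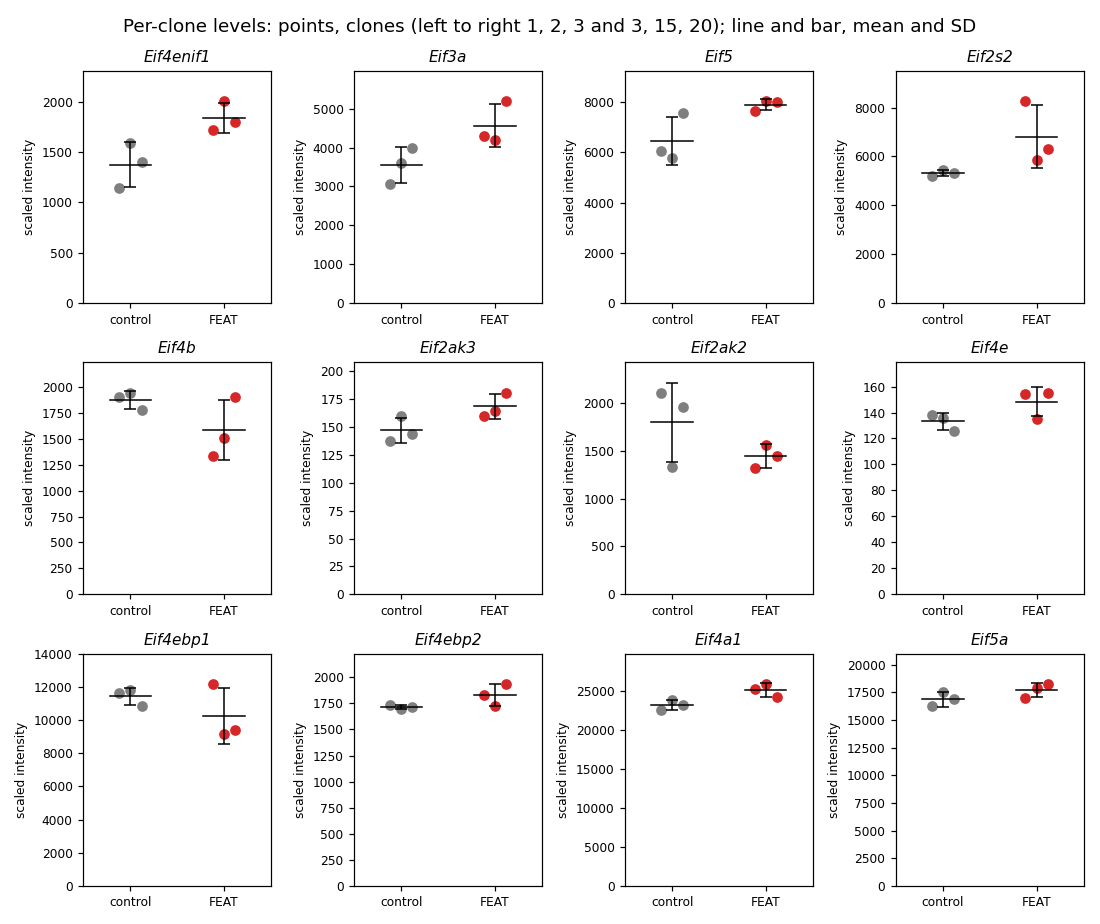
Scaled intensity of 12 initiation factor genes in each clone, with the mean and SD of the 3 control (grey) and 3 FEAT (red) clones; axes start at 0. For Eif4enif1, Eif3a, Eif5, Eif2s2, Eif2ak3 and Eif4a1 all FEAT points lie above the control points. Eif2ak2 shows control 2 at 1330.2 among the FEAT clones, and Eif4ebp1 shows FEAT 3 at 12180.0 above all controls.

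Several probes were tested for 23 of the genes, which gives a second reading of the same transcript from the same RNA. All tested probes of a gene had the same sign in 15 of the 23. Among the 20 genes with more than 1 probe above background on all arrays, those probes had the same sign in 15, and the exceptions were Eif2b1, Eif3b, Eif3i, Eif4b and Eif5. Eif4b had the widest gap between probes, 0.46 on the log2 scale, and Eif5 had 0.31. In Eif2ak1, Eif2ak3 and Eif3k the signs differed through a probe that was not above background on every array. The most even were Eif3l, whose probes lay 0.020 apart, and Eif3f, 0.027 apart. Probes of one gene are not replicates, since they share the RNA and may read different transcript forms.

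**Figure D3:**
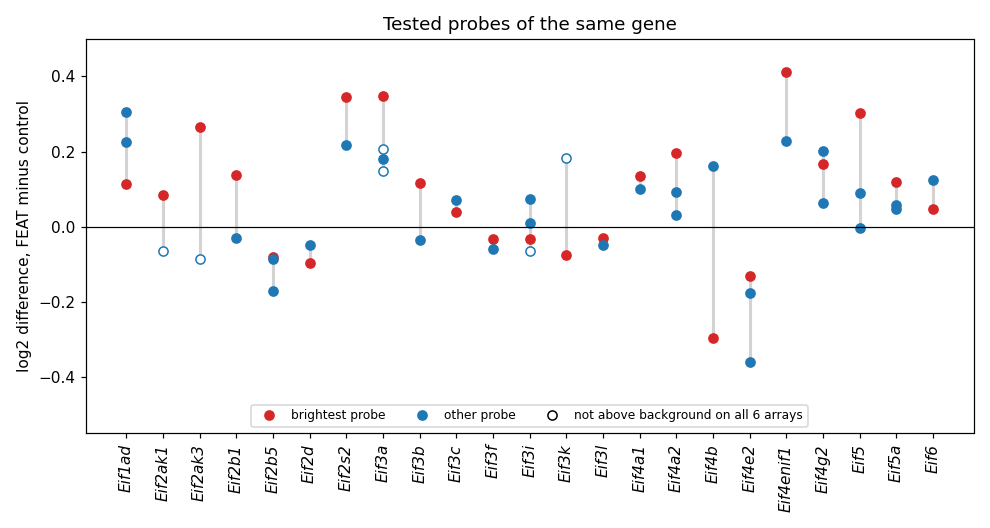
Log2 difference between FEAT and control clones for each tested probe of the 23 initiation factor genes with more than 1, the brightest in red and open points not above background on all arrays. The probes of Eif4b lie at -0.29 and 0.16, on opposite sides of 0, while all 3 of Eif4e2 lie below and both of Eif4enif1 above it.

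Clones of the same group were close to each other for these genes. The SD among clones within a group had a median of 0.14 on the log2 scale over the 47 members, against 0.18 over all genes tested. The 2 sets were not matched for brightness, and the part of brightness in this gap was not tested. The widest member above background on all arrays was Eif1ad, at 0.27. To follow single clones, each member was set against the mean of the 3 controls and the median over members was taken. It was 0.12 in FEAT 3, 0.027 in FEAT 15 and 0.078 in FEAT 20, against -0.056 in control 1, 0.043 in control 2 and 0.023 in control 3. Control 1 was thus the lowest clone and FEAT 15 lay between control 2 and control 3, so the medians of the groups overlapped. The same medians over all genes tested ran from -0.0030 to 0.013.

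The medians by clone were also taken within each role group. In start codon selection the median was 0.20 in FEAT 3 and -0.13 in control 1, with 0.088 in control 2, above both FEAT 15 and FEAT 20. In eIF2 and its recycling it was 0.15 in FEAT 3 and -0.050 in FEAT 15. The eIF3 subunits were at 0.12 in FEAT 3 and -0.015 in FEAT 20. In the cap-binding group all FEAT clones, at 0.13, 0.11 and 0.087, lay above the controls, the highest of which was at 0.023. That group takes in Eif4e3 and Eif4g3, not above background on any array, and Eif4a3, a helicase of the exon junction complex. The median of a group of 3 to 12 genes was given no test.

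**Figure D4:**
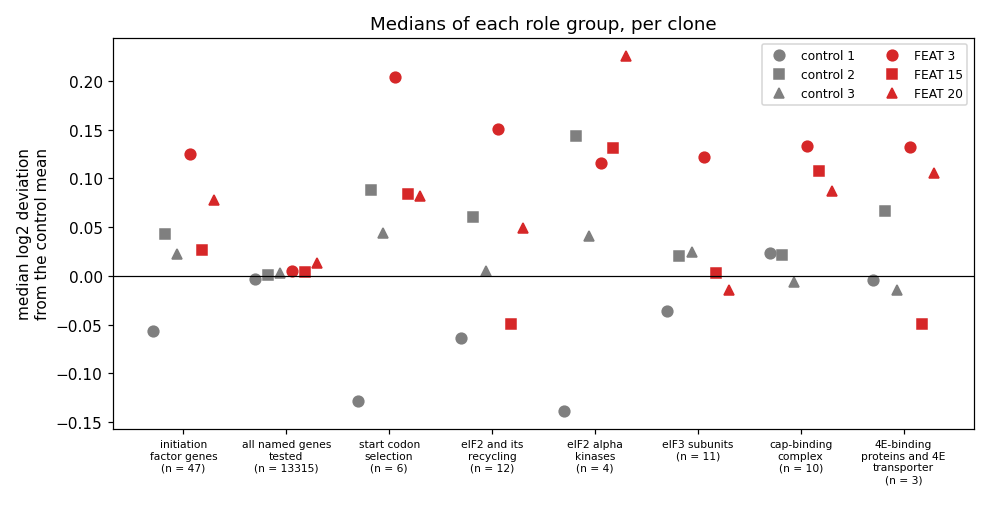
Median log2 deviation from the control mean over all initiation factor genes, all named genes tested and 6 role groups, 1 point per clone, controls in grey and FEAT clones in red. Over the initiation factors control 1 is lowest at -0.056 and FEAT 3 highest at 0.12, while over all genes the clones lie between -0.0030 and 0.013.

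The regulators around the initiation factors were read from 5 lists of 58 gene symbols, of which 54 were tested and 1 was called (0.225% of all genes tested). Gcn1l1, an older name of Gcn1, was among the symbols not tested. The mTORC1 axis, which controls the 4E-binding proteins, had 0 called of 13, with 1 higher and 2 lower without overlap (7.95% and 7.24% of all genes). Deptor, an inhibitor within mTOR complexes, read 319.8, 397 and 307 in control clones and 485, 451 and 509 in FEAT clones, all higher, and did not pass (log2 0.54, adjusted p = 0.252, and 0.29 on its other probe, which was above background on 2 of 6 arrays). Ddit4, the stress-induced mTORC1 inhibitor REDD1, read 1471, 1643 and 1136 in control clones and 1072, 774 and 922 in FEAT clones, all lower, and did not pass either (log2 -0.67, adjusted p = 0.254). At an unadjusted p under 0.05 the list had 2 genes higher and 1 lower, and the next 3 lists had 0 in either direction. Over all genes these shares were 5.20% and 4.94%. The kinase gene Rps6kb2 was at 0.42, with overlap on the normalized values (adjusted p = 0.531).

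Partners of the cap and the poly(A) tail had 0 called of 12 (0.225% of all genes) and a median of 0.020. Without overlap on the normalized values, 1 was higher and 3 were lower (7.95% and 7.24% of all genes). The 3 lower genes were Paip1, Paip2 and Gigyf2. Paip1 and Paip2, proteins that bind the poly(A)-binding protein, the second as an inhibitor, were at -0.26 and -0.27, and Gigyf2, a partner of Eif4e2 in repression, at -0.20 (adjusted p = 0.580, 0.618 and 0.679). A second Paip1 probe, not above background on any array, was at 0.30. Of the eIF2 alpha phosphatase subunits and kinase regulators 0 of 11 were called (0.225% of all genes). Without overlap, 0 were higher and 1 was lower (7.95% and 7.24% of all genes). Impact, an inhibitor of GCN2 activation, read 3529, 3755 and 3849 in control clones and 3281, 3255 and 2626 in FEAT clones, lower in all FEAT clones (log2 -0.31, adjusted p = 0.562), with -0.084 on its other probe. Dnajc3, a chaperone that inhibits PKR, was at 0.26 and the phosphatase subunit Ppp1ca at 0.25, with other Ppp1ca probes at -0.075, 0.19 and 0.20. Scanning, recycling and hypusination had 0 called of 7 (0.225% of all genes). The helicase Ddx3x was at 0.23, the hypusine enzyme Dohh at 0.20 and the reinitiation factor Mcts1 at 0.18.

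The ATF4 axis, which lies downstream of eIF2 alpha phosphorylation, was the 1 list with a called gene. Chac1, which degrades glutathione and is induced by ATF4, read 6968, 11194 and 9815 in control clones and 4164, 2616 and 4049 in FEAT clones and fell by 1.40 on the log2 scale (SE 0.22, limma, adjusted p = 0.0376). Its call held without control 2 and was lost on leaving out any other clone, and it was also lost in 5 of the 9 other settings of the processing. Of the 12 genes 1 was above 0, against 51.6% of all genes, with a median of -0.18. Without overlap, 0 were higher and 1, Chac1, was lower (7.95% and 7.24% of all genes). In the value table FEAT 3 was below all controls for Chac1 and Psat1 only. For the other genes of the list it lay within or above the control range. Trib3, an ATF4-induced pseudokinase, was at -0.57 and the stress protein gene Sesn2 at -0.33 (adjusted p = 0.599 and 0.679). Atf4 itself was at -0.12 on its brightest probe and -0.32 on the other (adjusted p = 0.870 and 0.573). The list was drawn up with earlier results of these data known, so its direction is no independent evidence.

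**Figure D5:**
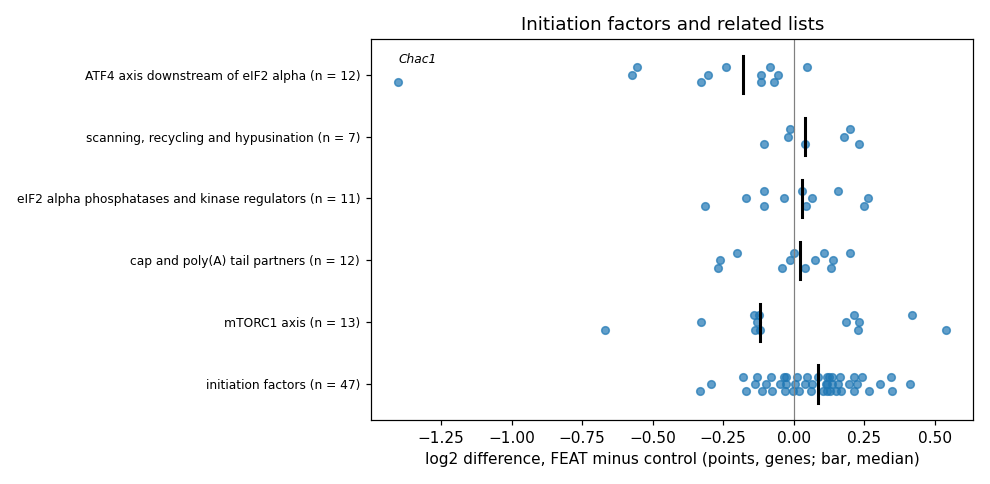
Log2 difference between FEAT and control clones for the 47 initiation factor genes and for the tested genes of 5 related lists, 1 point per gene with the list's median as a bar. The medians are 0.086 for the initiation factors (0.045 without FEAT 3) and -0.18 for the ATF4 axis, where Chac1 lies at -1.40.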

How the data were processed

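RNA from RNeasy kits was amplified and labelled (TotalPrep, Cy3) before hybridisation, per the labels. The submitters' processing notes name BeadStudio, without a version. The authors deposited linear probe intensity values with no detection p, and a value table in which each array's intensity values were rescaled by a single factor (0.925 to 1.10). Printed intensities come from the value table. Log2 differences were computed from the unscaled intensities in R 4.3.3 with limma 3.58.1: normexp fitted to all signals (offset 16), quantile normalization, log2, a filter to the brightest 60% of probes by mean over all arrays, lmFit and eBayes, two-sided, with Benjamini-Hochberg adjustment across 27169 probes. Because the 2 scales differ, groups can overlap on one and not on the other. With 3 clones a side, the smallest two-sided p of an exact permutation test is 0.1, and no such test was used. The brightest tested probe stood for a gene. An array's background limit was set on the log2 scale at its mode plus 3 SDs, the SD being that of the part below the mode.

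Values by clone were given for the 16 members of smallest p and a list of main factors. Those of Eif1b, Eif3b, Eif3c, Eif3f and Eif4e2 were added after their values were seen. Up to 3 genes of smallest p were named from each related list, and Atf4 was added. The members and lists were chosen with earlier results of these data known. Of 45281 probes, 34885 had 1 gene in the platform annotation. Promoters were taken from RefSeq (GRCm38.p6) by symbol. The steps were also run on simulated data, and the outcome is not reported here, so the share of real differences missed is not given. Background correction, normalization, filter, variance model, probe choice and each clone's inclusion were varied.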

Additional observations from a re-analysis of the deposited data

How the results depend on the processing

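The count of called initiation factor genes was 0 in all 9 other settings and in all 6 omissions of a clone. The smallest adjusted p of any member was 0.178, without control 2. The number at an unadjusted p under 0.05 and higher in FEAT clones was 2 in the report. It was 4 without background correction, with an offset of 50, with the deposited value table and with a variance trend. With median scaling it was 3, and with the mean of a gene's probes 0. In the omissions it was 0 to 3 (0 without control 1, 3 without control 3, 1 without FEAT 3 or FEAT 20). The number lower was 0 in the report, 1 without background correction and with an offset of 50, and 0 to 1 in the omissions. The median difference of the members stayed between 0.056 and 0.10 in the settings and between 0.045 (without FEAT 3) and 0.093 in the omissions. Of the related genes 0 were called without background correction, with an offset of 50, in the top 40% of probes, with a variance trend and with the mean of a gene's probes, and 0 to 1 in the omissions. The cause of these changes was not tested. No paired analysis was possible because the groups share only the clone number 3, which names separate lines.

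Over 47 genes, 413 of 418 values in other settings kept their sign and their side of the threshold. The 5 that changed sign were near 0: Eif1ax at -0.0062 with the deposited value table, -0.018 with median scaling and -0.021 with cyclic loess, Eif2s3x at 0.0024 with the value table, and Eif3k at 0.053 with the mean of its probes. In the omissions 31 of 280 values changed sign, in 18 genes, with these ranges of the log2 difference: Eif1ad -0.048 to 0.27, Eif1ax -0.15 to 0.19, Eif1b -0.0028 to 0.25, Eif2a -0.066 to 0.092, Eif2s3x -0.076 to 0.080, Eif2s3x-ps1 -0.0020 to 0.14, Eif2s3y -0.26 to 0.11, Eif3b -0.081 to 0.25, Eif3c -0.092 to 0.16. The others were Eif3d -0.077 to 0.065, Eif3e -0.0084 to 0.34, Eif3f -0.064 to 0.0089, Eif3h -0.11 to 0.10, Eif3i -0.094 to 0.0095, Eif3k -0.14 to 0.048, Eif3l -0.10 to 0.061, Eif4e3 -0.020 to 0.21, Eif4g3 -0.22 to 0.0079. Signal over background limits the 7 tested members that were not above it on every array.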
